A study of Equus caballus with 6 samples.

Results

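Among 4936717 distinct small RNA sequences called as piRNAs in the testis of the Mongolian horse, 757 (0.0153%) were of low complexity. A sequence was counted as such when its 2 most frequent bases made up at least 90% of its length and its GC content was under 70%, so that the choice used the letters of the sequence and no count. The 757 sequences held 2066 of the 17914237 reads of the table. Grouped by their 2 leading bases, 515 were made of G and T, 131 of C and T, 105 of A and G, and 6 of A and T. No sequence qualified with A and C or with C and G, and none fell under a single leading base. T is written for the U of the RNA throughout, as in the table. The libraries were 3 of immature testis and 3 of mature testis, each with its own column of counts. The labels give the breed and the tissue for both groups, but not the age of the horses, the stage of spermatogenesis or whether each library came from another animal. The spread given below is therefore that between libraries, which may be technical. The table lists small RNAs and no genes, so the tissue labels could not be set against marker genes.

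piRNAs are small RNAs that guide PIWI proteins to transposon and other transcripts in germ cells. Primary piRNAs usually begin with uridine, and those made by the ping-pong cycle tend to carry adenine at position 10. Simple repeats, or microsatellites, are short units repeated head to tail, and the repeat of CA, which reads as UG on the other strand, is the most common dinucleotide repeat in mammals. A read of such a repeat can match very many places in a genome, and no genome was used here, so that the sequences below carry no position or annotation.

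The sequences that carried most reads are shown first, 5′ to 3′, with the bases outside the leading pair in capitals. The G and T group was led by a repeat with a fixed pair of interruptions and by forms of it that differ at the 3′ end.
uniq_2443555: tgAgtgtgtgtgtgtgAgtgtgtgt
uniq_3542262: tgAgtgtgtgtgtgtgAgtgtgtgg
uniq_2461449: tgAgtgtgtgtgtgtgAgtgtgtgtt
uniq_6847956: tgAgtgtgtgtgtgtgAgtgtgttt
uniq_2459352: tgAgtgtgtgtgtgtgAgtgtgtgttt
Other leading G and T sequences had no repeated unit, and they are shown because they went in opposite directions between the groups on the scale of library totals.
uniq_261058: tAgttgtCtgttttgttgtgtgAtttgggt
uniq_8886371: tgttttCttggtgtttgCtttgtgtt
uniq_624939: tAggttgtgttttggttttgtggAtg
The leading A and G sequences were purine runs behind a first T.
uniq_3921574: TggaagaaaagaTggagaggaCaggggagg
uniq_2942793: TggaagaagagaCagagaggaCaggggagg
uniq_5131752: TggaaTgaaagaagaaagggaagaagagg
The leading C and T sequences were pyrimidine runs, and those of A and T are few.
uniq_3631777: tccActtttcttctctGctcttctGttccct
uniq_4846469: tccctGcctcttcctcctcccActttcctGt
uniq_3120427: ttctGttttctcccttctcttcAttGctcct
uniq_83856: taatttaaaaatCtGtaataattttt

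Few of the 757 sequences met a strict measure of repetition. A tandem repeat was called when, for a unit of up to 6 bases, at least 85% of the positions repeated the base 1 unit before. By this measure 80 sequences with 603 reads repeated GT and a few repeated other units of 3 to 6 bases. The other 670 had no such unit, including all 105 of A and G. Interrupted forms can fall there too, as uniq_3542262 and uniq_2461449 did. Only 13 sequences contained 2 bases and no other, 11 of G and T with 12 reads, 1 of A and T, and 1 of C and T. Of the 11, 8 were GT repeats by the measure above. uniq_37295, of 30 nt and 1 read, alternates without a break and was chosen after the values were seen, to contrast with the interrupted repeat.
uniq_37295: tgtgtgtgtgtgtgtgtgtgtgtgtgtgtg

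G and T sequences far outnumbered their complement. They made up 515 sequences and those of A and C none, whereas the complementary groups A and G (105) and C and T (131) were closer in size. The difference held below the threshold: among sequences with 85% to under 90% of 2 bases, 2999 were of G and T, 44 of A and C, 1372 of A and G, and 1700 of C and T. A stretch of 6 TG units in a row was found in 1484 of all sequences (0.0301%) with 5175 reads, and its complement, 6 CA units, in 96 (0.00194%) with 148 reads. Both were searched on the strand sequenced. Of all bases after position 1, T made up 27.8% to 28.9%, G 26.2% to 27.4%, A 22.9% to 24.9% and C 20.8% to 21.3% over the 6 libraries. A full reverse complement in the table, equal to the sequence, containing it or lying within it, was found for 2 of the 757 sequences, both of C and T and of 1 read.

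Long runs of a single base did not occur anywhere in the table. The longest run of any of the 4 bases in the 4936717 sequences was 6, for A, C, G and T alike. No low-complexity sequence was made of a single base. Whether a filter before deposit removed longer runs is not given in the sources used here. Alternating runs were longer: the longest alternating run was 30 bases for GT, 22 for AC, 18 for CT, 15 for AG, 11 for AT and 8 for CG. Among the 757 sequences it was 30 for GT, 13 for CT and 12 for AG.

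Low-complexity reads took a larger share of the table's reads in the immature libraries, when scaled to the total of each library. They made up 305, 162 and 206 reads per 1000000 reads of the library (CPM) in immature replicates 1 to 3 and 74.6, 69.4 and 82.4 CPM in mature replicates 1 to 3. The 95% exact Clopper-Pearson intervals were 276 to 335, 146 to 179 and 183 to 230 CPM, and 66.6 to 83.5, 61.5 to 78.1 and 74.3 to 91.2 CPM, in the same order. All 3 immature libraries lay above all 3 mature ones, at means of 224 ± 73.1 and 75.5 ± 6.52 CPM (SD, n = 3), a ratio of 2.97. The intervals cover counting error only, since no molecular identifiers mark which reads are copies of one molecule. In bulk tissue, fewer cells of a type and less RNA in each cell cannot be told apart. No test was run on sums over the set, and with 3 against 3 libraries an exact permutation test could not give a p below 0.1. The libraries held 1382083, 2347351 and 1462339 reads in immature and 4139452, 4032042 and 4550970 in mature testis, and 301 to 421 and 280 to 375 of these were of low complexity. A count of 0 allows up to 3 reads, or 1.28 to 2.17 CPM in an immature and 0.659 to 0.744 CPM in a mature library.

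The size of the ratio depended on 1 family of sequences and on weighting by reads. Without the 13 members that share the first 20 bases of uniq_2443555, the level was 109 ± 10.3 CPM in the immature and 70.8 ± 7.42 CPM in the mature libraries, a ratio of 1.53, and the groups still did not overlap. With each distinct sequence counted once, low-complexity sequences made up 154 ± 3.85 of each 1000000 distinct sequences in immature and 147 ± 10.9 in mature testis, and the groups overlapped. The number of distinct sequences was 131, 192 and 147 in the immature and 167, 154 and 181 in the mature libraries. Thinned to the 1382083 reads of the smallest library, it was 131 ± 8.73 and 69.8 ± 3.53. The whole table gave 850634 ± 41768 and 497657 ± 15685 distinct sequences at that depth. Of the 757 sequences, 369 were seen in immature libraries alone, 346 in mature libraries alone and 42 (5.55%) in both groups, against 6.26% of the whole table.

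The groups of bases did not move alike. G and T sequences stood at 281, 141 and 177 CPM in the immature and 39.4, 43.9 and 43.9 CPM in the mature libraries, without overlap and with a ratio of means of 4.72. A and G sequences went the other way, with 13.02, 7.67 and 14.4 CPM in the immature and 22.9, 16.4 and 26.4 CPM in the mature libraries, 1.87 times higher in mature testis and without overlap. C and T sequences stood at 8.68, 11.9 and 13.7 CPM in the immature and 12.1, 8.43 and 11.4 CPM in the mature libraries, and the groups overlapped. The 6 sequences of A and T held 12 reads in all and gave 0.994 ± 0.401 and 0.548 ± 0.269 CPM (SD, n = 3). These directions are on the scale of library totals. With TMM factors, which moved the median log2 fold change of the tested sequences from 3.15 to 0.62, a shift of 2.52, all 4 groups were lower in mature testis. The A and G group then stood at 29.3 ± 10.4 CPM in the immature and 8.83 ± 1.71 CPM in the mature libraries. On that scale G and T sequences stood at 508 ± 242 and 17.2 ± 1.1 CPM, and C and T sequences at 27.9 ± 4.34 and 4.31 ± 0.741 CPM. The direction for A and G therefore did not hold on both scales.

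The most abundant low-complexity sequence was uniq_2443555, a GT repeat of 25 nt with A at positions 3 and 17. It had 233, 121 and 101 reads in the immature and 9, 21 and 17 reads in the mature libraries. Immature replicates 1 to 3 thus held 169, 51.5 and 69.1 CPM of it. The means were 96.4 ± 63.1 CPM in the immature and 3.71 ± 1.52 CPM in the mature libraries (SD, n = 3). Every immature library lay above every mature one, and immature replicate 1 was the highest of the 6. The sequence made up 59.9%, 36.4% and 39.0% of the G and T reads in the immature libraries and 5.52%, 11.9% and 8.5% in the mature ones. On the log2 scale the change, mature against immature, was -7.35 ± 0.79 (SE) under TMM scaling by edgeR's quasi-likelihood test (adjusted p = 1.3e-19). Scaled to library totals it was -4.68 ± 0.75 (edgeR, adjusted p = 3.7e-09). Without immature replicate 1 the change under TMM scaling was -6.25 ± 0.56 (edgeR, adjusted p = 1.2e-07). Mammals have a microRNA, miR-574-5p, that is known for a run of UG repeats. No microRNA sequences were used here, so uniq_2443555 was not compared with it, and whether they are the same is not settled here.

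The same repeat start recurred in many other sequences. Of all sequences, 86 began with the first 20 bases of uniq_2443555, of which 13 were of low complexity by the rule, and they held 927 reads. Their level was 281, 97.6 and 138 CPM in the immature and 5.07, 11.9 and 8.57 CPM in the mature libraries, a ratio of means of 20.2. Read numbers fell with length, from 722 at 25 nt, the shortest length the table lists, to 84 at 26 nt, 83 at 27 nt, 32 at 28 nt and 6 at 29 nt. None was longer. Forms under 25 nt were not analysed here.

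The 3′ ends of this family, whose start is shared by its choice, varied. Of 824 reads with the first 24 bases of uniq_2443555, 584 (70.9%) had T next, 151 (18.3%) A, 56 (6.8%) C and 33 (4%) G. A further GT unit after base 25 would need G as base 26, and 2 reads had it. Among the 82 reads that ran past base 25 with the same 25 bases, 51 had T there, 27 A, 2 C and 2 G. The forms with 1, 2 and 3 added T after base 25 had 22, 15 and 7 reads, and 7 of the 7 with 3 came from immature replicate 1. The form ending in G, uniq_3542262, had 5, 8 and 10 reads in immature and 4, 3 and 2 in mature libraries. It changed by -5.15 ± 0.67 (SE) on the log2 scale under TMM scaling (edgeR, adjusted p = 7.7e-14). Scaled to library totals the change was -2.58 ± 0.5 (edgeR, adjusted p = 1.5e-06). This form passed the filter on low counts through the immature libraries alone, which bears on its direction. The forms uniq_2461449 and uniq_6847956 had 4 to 11 and 2 to 7 reads in the immature libraries and at most 1 read in each mature library. uniq_2459352 had 11 reads in immature replicate 1, 3 in replicate 2 and 0 in replicate 3, and 1 read in the mature libraries.

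Outside that family, G and T sequences had many different starts, and the leading ones went in both directions. The 502 sequences left stood at 80.3, 81.4 and 91.6 CPM in the immature and 36.2, 37.5 and 39.3 CPM in the mature libraries, a ratio of 2.24 without overlap. GT repeats among them, 77 sequences with 99 reads, stood at 17.4, 7.24 and 10.9 CPM in the immature and 1.69, 5.7 and 2.64 CPM in the mature libraries. This does not extend to all sequences with 6 TG units in a row. Those 1484, with the leading family included and 242 of low complexity, stood at 483, 261 and 311 CPM in the immature libraries. In the mature libraries they stood at 217, 299 and 294 CPM, and the groups overlapped.

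The second sequence, uniq_261058, was higher in each mature library, with 26, 30 and 34 reads against 1, 3 and 1 in the immature libraries. That is 7.06 ± 0.678 CPM in the mature and 0.895 ± 0.332 CPM in the immature libraries. It passed the filter on low counts through the mature libraries alone, which bears on that direction. Its call depended on the scale: under TMM scaling the log2 difference was 0.31 ± 0.82 (edgeR, adjusted p = 0.801), and scaled to library totals 2.84 ± 0.75 (edgeR, adjusted p = 0.00019). It is a sequence of 30 nt, and 122 of the 156 reads that begin with its first 20 bases were of that length. Those reads stood at 2.89, 3.41 and 2.05 CPM in the immature and 9.9, 12.2 and 11.2 CPM in the mature libraries. Other leading sequences were read in immature testis alone. uniq_8886371, of 26 nt, had 5, 7 and 5 reads in the immature and 0 in each mature library. uniq_624939, also of 26 nt, had 2, 7 and 5 reads in the immature and 0 in each mature library. Its first 20 bases began 29 sequences of the table with 107 reads, which stood at 15.2, 20.02 and 21.2 CPM in the immature and 0.725, 0.744 and 0.439 CPM in the mature libraries.

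A start that differs from that of uniq_624939 by T8C (positions counted from 1 at the 5′ end, the base of uniq_624939 first) was also read mainly in immature testis. It is shown for that likeness, noticed after its values were seen.
T8C start: taggttgCgttttggttttg
It began 18 sequences with 109 reads, at 17.4, 14.9 and 19.1 CPM in the immature and 1.69, 1.98 and 1.54 CPM in the mature libraries. Both starts were higher in every immature library than in any mature one. Among other starts of 15 bases, chosen for their read numbers after these were seen, tgtgtgtctgtgtgt was carried by 24 low-complexity sequences with 57 reads. It had 0, 1 and 1 reads in the immature and 21, 10 and 24 reads in the mature libraries. The next G and T start by read number was tgtgttttgatttgt, with 11 sequences and 43 reads. It differed less, with 2, 3 and 2 reads in the immature and 10, 11 and 15 reads in the mature libraries. That is 1.45, 1.28 and 1.37 CPM against 2.42, 2.73 and 3.3 CPM. The start tgaggttggttgttc, with 13 sequences and 40 reads, had 0, 0 and 1 and then 7, 16 and 16 reads.

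A and G sequences were purine runs with a first T. Of the 105, 92 began with T, a base outside their leading pair, and these made up 92 of the 162 T bases they held. Adenine stood at position 10 in 60 of them (57.1%), against 30.6% of the whole table, a comparison that their A content enters. Reads of 29 to 32 nt made up 90.5%, 89.4% and 81.7% of the A and G reads in the mature and 11.1%, 22.2% and 52.4% in the immature libraries, where they rested on 18 to 21 reads in a library.

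The leading A and G sequence was not detected in 1 mature library. uniq_3921574 had 24 and 27 reads in mature replicates 1 and 3, 0 in mature replicate 2, where 0 allows up to 0.744 CPM, and 1, 0 and 2 reads in the immature libraries. All 22 sequences of the table with its first 20 bases showed the same gap, with 226, 0 and 208 reads in the mature and 5, 0 and 9 in the immature libraries. A start that differs by T13C, chosen after its values were seen, was read mainly where this one was not.
uniq_3921574 start: tggaagaaaagatggagagg
T13C start: tggaagaaaagaCggagagg
The T13C start had 1, 116 and 39 reads in the mature and 0, 1 and 4 in the immature libraries. It began 5 sequences, of which 1 was of low complexity. Another start, which differs by A9G, had 8, 11 and 0 reads in the mature and 0, 3 and 2 in the immature libraries. Mature replicate 3 held both starts in number, replicate 1 almost only the first and replicate 2 only the second. What sets these libraries apart was not tested.

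A related start was spread more evenly over the mature libraries. uniq_2942793 had 13, 10 and 13 reads in the mature and 0, 1 and 2 in the immature libraries, and its first 20 bases began 20 sequences, at 12.1, 7.94 and 9.45 CPM in the mature and 0, 0.852 and 1.37 CPM in the immature libraries. A start that differs from it by A14G, also chosen after its values were seen, was the more abundant one and held no low-complexity sequence.
uniq_2942793 start: tggaagaagagacagagagg
A14G start: tggaagaagagacGgagagg
The A14G start had 665 reads, at 13.05, 95.7 and 44.6 CPM in the mature and 1.45, 3.41 and 8.21 CPM in the immature libraries, so that mature replicate 2 was highest there. uniq_5131752 had 10, 6 and 8 reads in the mature and none in the immature libraries. The CPM of A and G sequences without overlap rested on 2 of these starts: without the starts of 15 bases of uniq_3921574 and uniq_2942793 the level was 10.4 ± 2.75 CPM in the immature and 12.7 ± 2.05 CPM in the mature libraries, and the groups overlapped.

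C and T sequences were rarely read more than once, with 114 of 131 (87.0%) at 1 read against 77.0% of the whole table. uniq_3631777 led them with 6, 8 and 9 reads in the mature and 0, 2 and 0 in the immature libraries. uniq_4846469 had 1, 3 and 6 and uniq_3120427 2, 1 and 4 reads in the mature libraries, with 1 immature read between them. All 3 were of 31 nt, while forms of 29 nt with the starts of uniq_3120427 and uniq_3631777 fell under the limit at 89.7%. Among these, uniq_4829900, with the start of uniq_3120427, had 26 reads, and uniq_4402524, with that of uniq_3631777, had 17. Counts of 0 in the immature libraries allow up to 1.28 to 2.17 CPM, while uniq_3631777 stood at 1.45 to 1.98 CPM and uniq_4846469 at 0.242 to 1.32 CPM in the mature libraries. Library by library, a difference between the tissues was therefore not detectable at this depth for either sequence alone, and the groups of uniq_3120427 overlapped. Over all sequences of the table with its first 20 bases, uniq_3631777 stood at 0, 1.28 and 2.05 CPM in the immature and 5.8, 4.22 and 6.81 CPM in the mature libraries. For uniq_3120427 the levels were 0, 1.7 and 0 CPM and then 4.35, 3.22 and 3.96 CPM. Neither start overlapped between the groups on this scale of library totals. Reads of 29 to 32 nt made up 78.0%, 70.6% and 78.8% of C and T reads in the mature and 8.33%, 32.1% and 0% in the immature libraries.

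The A and T sequences were seen with 1 to 6 reads each. uniq_83856 had 1, 2 and 3 reads in the mature and none in the immature libraries. Its first 20 bases began 18 sequences of the table, with 20, 14 and 35 reads in the mature and none in the immature libraries, and 1 of the 18 met the rule.

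Nearly all low-complexity reads began with T. Of the 757, 688 (90.9%) began with T, 42 with G, 17 with C and 10 with A, against 83.4% with T in the whole table. By reads, T stood first in 97.6%, 97.1% and 98.0% in the immature and 95.8%, 95.4% and 93.6% in the mature libraries. The rest of the table gave 75.3%, 73.7% and 77.5% and then 89.1%, 90.02% and 90.2%. The share was higher in 6 of 6 libraries, by 13.6 ± 9.4 percentage points (SD, n = 6). The rule chose sequences by their bases and most of those chosen are rich in T, so this is a description and no test is drawn from it. The gap was 20.5 to 23.4 points in the immature and 3.4 to 6.73 points in the mature libraries. With each distinct sequence counted once, the mean difference was 7.94 points.

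In every library, reads of 29 to 32 nt were a smaller share of the low-complexity reads than of the rest. They made up 3.56%, 12.9% and 10.3% of low-complexity reads in immature and 68.9%, 63.2% and 67.7% in mature testis, against 34.1% to 39.5% and 70.5% to 72.4% in the rest. The share was lower than in the rest in 6 of 6 libraries, by 16.0 ± 12.6 percentage points (SD, n = 6, exact sign-flip permutation p = 0.031, adjusted p = 0.0625 over 4 measures). It misses 0.05 after adjustment, and 0.031 is the smallest p that 6 libraries allow. The libraries gave differences of -31.3 to -23.8 points in the immature and -8.26 to -2.79 points in the mature libraries. Without the family of uniq_2443555 the mean difference was -10.2 points (exact sign-flip permutation, adjusted p = 0.094 over 4 measures). In the mature libraries the gap then narrowed, and in mature replicate 3 the share lay above that of the rest. Weighting all distinct sequences equally gave -6.42 points. Without that family, reads of 29 to 32 nt made up 14.3% ± 4.47 of the remaining G and T reads in immature and 61.5% ± 2.79 in mature testis.

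Adenine at position 10 was found in 4.51%, 8.16% and 7.64% of low-complexity reads in immature and 30.4%, 21.8% and 28.3% in mature testis. The rest gave 27.4% to 29.2% and 29.98% to 31.1%. The share was lower in 5 of 6 libraries, with a mean difference of -12.4 ± 10.3 points (SD, n = 6). This too is a description, since the rule limits A in the groups without it: adenine stood at position 10 in 5.83% of the G and T, 8.4% of the C and T and 57.1% of the A and G sequences. Sequences with 1 read in a library made up 79.4% ± 5.6 of low-complexity and 79.9% ± 8.05 of other sequences, lower in 3 of 6 libraries (exact sign-flip permutation p = 0.594, adjusted p = 0.594).

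Few of these sequences were abundant enough to be tested one by one. Of 31788 sequences of the table that passed the filter on low counts, 3 were of low complexity (uniq_2443555, uniq_3542262 and uniq_261058), and 2 of the 3 were called higher in immature testis by edgeR with TMM factors at an adjusted p under 0.05. Of all tested sequences, 21.9% were called higher in immature and 8.41% higher in mature testis. The 2 called share their first 24 bases. None of the 3 was called higher in mature testis with TMM factors. With library totals, the same test called 2 higher in immature and 1 higher in mature testis, where 20.3% and 77.7% of all tested sequences were called. The CPM of the groups did not overlap for any of the 3, as for 97.2% of all tested sequences (77% higher in mature, 20.2% higher in immature testis). The filter asks for a minimum level in 3 libraries, so a sequence high in 1 group can pass through it alone. uniq_3542262 passed through the immature libraries (3.41 to 6.84 CPM, against 0.439 to 0.966 CPM in the mature ones). uniq_261058 passed through the mature libraries (6.28 to 7.47 CPM, against 0.684 to 1.28 CPM in the immature ones). Their direction and lack of overlap are thus in part given by the filter. With no filter beyond 6 reads in all, 48 were tested, of which 17 were called higher in immature testis and 1, uniq_5131752, higher in mature testis (edgeR adjusted p = 0.0418). In that fit 19.5% of all 294186 sequences tested were called higher in immature and 9.81% higher in mature testis. Apart from uniq_8886371, the 17 carried the start of uniq_2443555 or that of uniq_624939, the latter also with T8C or further from the 5′ end. They are overlapping forms and not independent sequences.

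The limit of 90% split families. Of the family of uniq_2443555, the form ending in A, uniq_2443556, lay just outside at 88% with 20, 15 and 19 reads in immature and 1, 6 and 3 in mature libraries, while uniq_2443555 lay inside at 92%. Of the sequences just inside, under 91%, uniq_261058 with 95 reads and uniq_3921574 with 54 were the most abundant. Just outside, from 88% to under 90%, the most abundant was uniq_3225434, an A and G sequence with the A14G start, with 2, 7 and 7 reads in immature and 39, 269 and 151 in mature libraries. In all, 117 sequences just inside held 494 reads and 1925 just outside held 4085. Those just inside stood at 2.89, 9.37 and 11.6 CPM in the immature and 35.8, 32.5 and 37.8 CPM in the mature libraries. Those just outside went the other way, at 347, 284 and 373 CPM in the immature and 146, 234 and 186 CPM in the mature libraries. Neither side overlapped between the groups. The sides also differ in length, since only 30 nt or more can fall just inside and only 29 nt or less just outside. The limit on GC removed 1 sequence with 1 read.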

How the data were processed

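Small RNAs of 3 immature and 3 mature testis libraries were sequenced, per the labels' protocols from 3 µg of total RNA with adapters ligated to both ends and gel products of 140 to 160 bp. The deposited table gives whole-number read counts per distinct sequence of 25 to 32 nt, not normalized, per the file headers. All 6 columns entered, and 0 rows lacked a sequence. Per the submitters' processing notes Bowtie was used. Its version, the build and how piRNAs were called are not given in these sources. Columns were matched to samples by the labels.

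CPM is reads per 1000000 reads of a column's total. Sequences were tested over the whole table with edgeR 4.0.16 in R 4.3.3 (quasi-likelihood test, TMM factors over column totals, filterByExpr defaults, Benjamini-Hochberg adjustment, threshold 0.05). SE values were obtained as the absolute log2 change over the root of edgeR's F. The test was checked on simulated counts. Differences from the rest of the table in length and in single-read share used an exact two-sided sign-flip test over 6 libraries, adjusted over 4 measures. The other 2, on bases, entered that adjustment but are given without a test, because the rule used the bases. The rule also bears on length, since its limit allows more bases outside the pair at 30 nt than at 29 nt. Numbers of distinct sequences at equal reads are expected values under thinning. Alternatives were library totals, DESeq2 1.42.0, other filters and limits, a replicate block and leaving out each library. Sequences named were the 3 of highest mean CPM in each base group, the 10 highest of all, and those called; others share a start with these or were chosen after their values were seen. Some A and T sequences that this rule names are not reported here. The members and lists were chosen with earlier results of these data known.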

Additional observations from a re-analysis of the deposited data

How the results depend on the processing

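The log2 ratio of low-complexity CPM, mature to immature, was -1.57 as reported and stayed negative in all alternatives run. It was -4.22 with TMM factors, -0.061 with each distinct sequence counted once, -2.11 with sequences of at least 2 reads, -0.96 at a limit of 95% and -3.96 at 100%. It was -0.83 without uniq_2443555 and -0.62 without its family. With 1 library left out it ran from -1.76 to -1.28. For G and T sequences it was -2.24 as reported, -4.88 with TMM factors, -1.42 without uniq_2443555, -1.16 without its family and -2.43 to -1.91 with 1 library left out. For A and G it was 0.91 as reported and reversed to -1.73 with TMM factors. It was 0.30 without its 2 largest starts and 0.68 to 1.08 with 1 library left out. For C and T it was -0.1 as reported and -2.7 with TMM factors, and it ran from -0.27 to 0.047 with 1 library left out, reversing without immature replicate 3 (0.047) and without mature replicate 2 (0.04). For A and T it was -0.86, -3.51 with TMM factors, -3.59 without its most abundant sequence and -1.14 to -0.49 with 1 library left out. Leaving out the leading family and the largest A and G starts was chosen after seeing the data.

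The number of distinct low-complexity sequences differed by 10.7 (mature minus immature) as counted, by -61.5 after thinning to the smallest library and by -3.33 at 100%. It ran from -2.17 to 28.3 with 1 library left out, and was -2.17 without immature replicate 1. Against the rest of the table, the difference in the share of single-read sequences was -0.53 points. It reversed to 0.084 without immature replicate 3 and to 1.25 without the leading family, and ran from -1.06 to 0.084 with 1 library left out. The other 3 differences kept their sign, at 11.7 to 15.7 points for T at position 1, -15.01 to -10.3 for adenine at position 10 and -18.7 to -12.98 for 29 to 32 nt. With 5 libraries the sign-flip test cannot give a p below 0.0625. At a limit of 100% these differences could not be computed, because mature replicate 1 held no such sequence.

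Calls higher in immature testis numbered 2 as reported and 17 with no filter beyond 6 reads. That fit tested 48 sequences in place of 3, and 19.5% of all 294186 tested were called so. With 1 library left out, such calls numbered 1 to 3. Those fits tested 2 to 6 low-complexity sequences and called 8943 to 10094 of 29005 to 52980 sequences of the whole table higher in immature testis. Calls higher in mature testis numbered 0 as reported, 1 with library totals, 1 with no filter and 0 to 0 with 1 library left out. At an unadjusted p under 0.05 edgeR with TMM factors also gave 0, as did DESeq2 after adjustment. uniq_2443555 was called in all 11 fits, at -7.62 to -6.25 with 1 library left out, and uniq_261058 in 1 of 11. uniq_3542262 did not pass the filter in the fits without mature replicate 1, 2 or 3.

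Both groups have the same replicate numbers. The correlation of deviations between libraries of equal number was 0.032, -0.089 and 0.013, against -0.086 to 0.079 between libraries of unequal number. These values do not set libraries of equal number apart, and they cannot exclude a pairing. With the replicate block, edgeR called 2 low-complexity sequences, both higher in immature testis. Of the 31788 sequences tested, it called 6791 in place of 6976 higher in immature and 693 in place of 2672 higher in mature testis. The number higher in mature testis was 24713 with library totals, 4033 with DESeq2, 28866 with no filter and 1773 to 6053 with 1 library left out. Depth limits single sequences: 591 of 757 had 1 read in all, and 23 had 10 or more.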
